A study of Rattus norvegicus with 3 samples.

Results

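Amino acid transporters of the solute carrier families SLC1, SLC3, SLC6, SLC7, SLC36, SLC38 and SLC43 were examined in rat induced pluripotent stem (iPS) cells. They were the genes whose probe name began with Slc1a, Slc3a, Slc6a, Slc7a, Slc36a, Slc38a or Slc43a on a rat whole-genome array. The rule gave 50 genes, with 61 probes, of 35488 genes on the array. In 28 of these 50 genes (56.0%) at least 1 probe was well above background in 1 of the RNAs on all 3 arrays, a condition that 20319 of all genes (57.3%) met, and these 28 are called measured below.

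Each of the 3 arrays carried an iPS M13 sample labelled with Cy3 against the same adult RNA, mix1, labelled with Cy5. The iPS M13 cells were an untreated line, kept on irradiated mouse embryonic fibroblast feeders in a medium with serum, serum replacer, non-essential amino acids and L-glutamine. The adult RNA came from a mixture of cultured rat bone marrow cells and cultured primary ear fibroblasts, grown in media with serum. Dyes were not swapped, so dye and cell type cannot be told apart, and mix1 was 1 RNA whose own spread was not measured. M13 is 1 line, and the labels do not say that its 3 samples were separate cultures, so the p-values reflect no more than how these samples varied, and that variation may be technical. The RNAs came from whole cultures, in which fewer cells of a type and less RNA per cell cannot be told apart.

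Amino acid transporters move amino acids and related molecules across membranes, and physiologists sort them into systems by substrate and by their dependence on sodium. Many cells take up amino acids with concentrating, sodium-driven carriers such as system A and then trade them through exchangers such as Slc1a5 and the system L proteins for the ones they lack. Several SLC7 proteins are light chains, which need a heavy chain of the SLC3 family to reach the cell surface. The cationic carriers of the SLC7 family need no partner.

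Ratios are log2 of iPS M13 over mix1 after background correction and loess normalization within each array, given as the mean ± SD of 3 arrays, and signals are normalised log2 signals of 1 probe, which cannot be compared between probes. Where a probe is said to be at background, the scanner software did not mark it as well above background. A gene was called higher or lower in iPS M13 at an adjusted p under 0.05 in limma, over all 20319 genes, and a fold of at least 2. Between 52.4% and 61.0% of probes were well above background per channel and array, and log2 ratios correlated between arrays at 0.9972 to 0.9979. Pluripotent cell markers were higher in 6 of 7 measured genes, with Fgf4 at background in both RNAs and Lin28a at -0.15, while fibroblast markers were lower in 11 of 11 and macrophage markers in 9 of 9. Neuron markers were higher in 6 of 7 measured genes, with summed signals of 79500 to 86700 in iPS M13 against 23600 to 25500 in mix1.

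Of the 28 measured transporter genes, 10 passed the call as higher in iPS M13, 12 passed it as lower and 6 did not pass it. Over all genes tested, 18.8% were called higher and 25.4% lower, against 35.7% and 42.9% of the measured transporters. In 18 of the 28 both RNAs were well above background on all arrays, with 7 higher and 7 lower. Of all such genes 16.5% were higher and 21.9% lower. The rest passed the filter through 1 RNA only, so the filter in part set their difference and their adjusted p is no separate support. Among them Slc1a1, Slc38a5, Slc43a3, Slc6a17 and Slc7a7 were at background in the other RNA on every array. The median ratio was -0.73 over the measured transporters and -0.02 over all genes, and the median absolute ratio was 1.498 and 0.868. All 28 had an adjusted p under 0.05, as did 96.1% of all genes, so the minimum fold decided the calls. The sign was the same on the 3 arrays for each of the 28, and their SDs between arrays were 0.0035 to 0.28.

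The split between higher and lower depended on how the arrays were centred. With median centring in place of loess the ratio of the median gene moved up by 0.60, with no normalization by 0.55 and with the scanner software's processed signals by 0.31. Of all calls, 42.5% were higher under loess, 67.2% under median centring, 65.1% without normalization and 56.6% with processed signals. The count of transporters called higher was 10, 10 and 11 under these 3 scalings, and the count called lower was 6, 6 and 11. In the same order, 36.4%, 34.5% and 31.1% of all genes were called higher and 17.8%, 18.4% and 23.8% lower. With median centring or no normalization the transporters called higher, 35.7% of the 28, were thus near the share of all genes. Measured from the median gene of the same scaling, each of the 28 stood on the same side under loess and these 3 scalings. Median centring and no normalization differ only by a constant per array, so measured this way they give the same values and count as 1 check. The calls that a scaling changed are given with each gene.

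**Figure D1:**
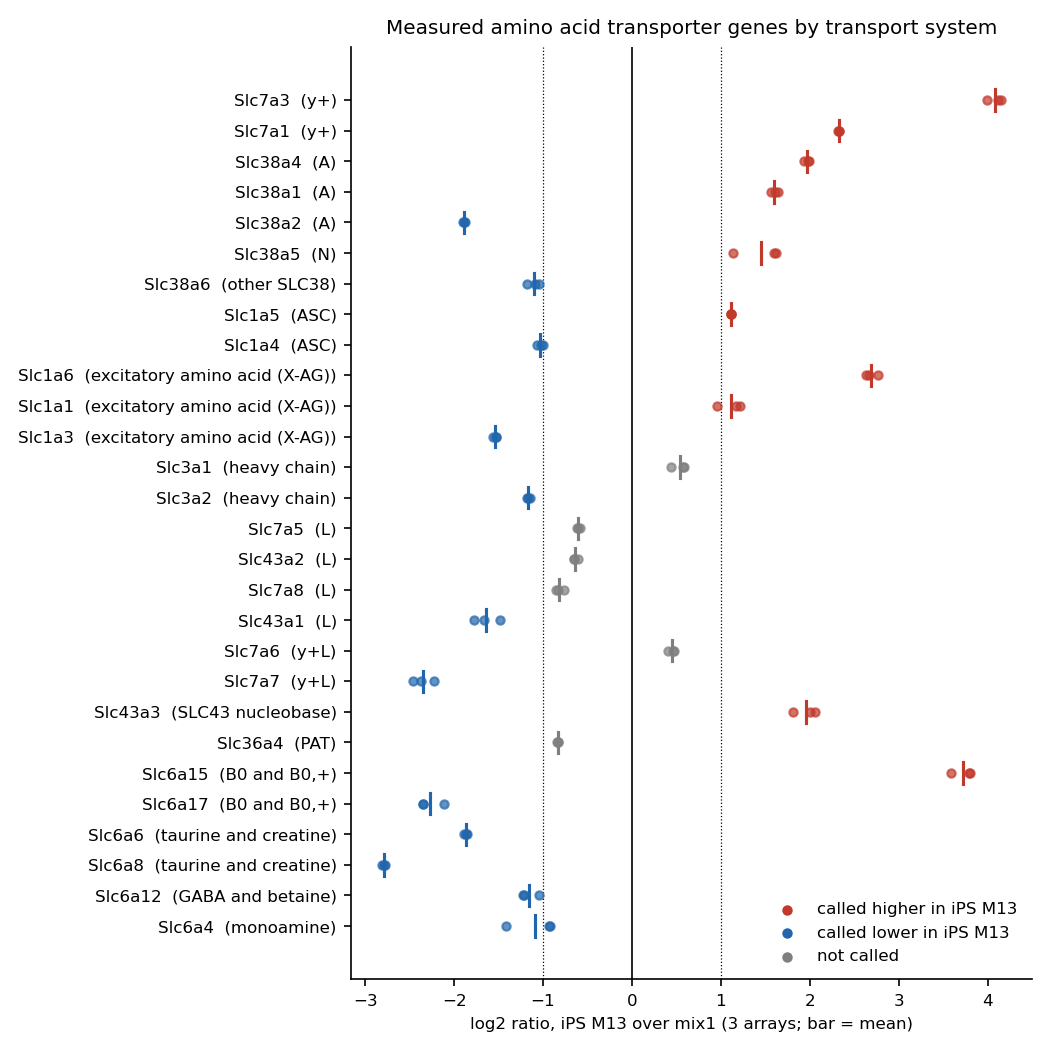
The horizontal axis is the log2 ratio of iPS M13 over mix1 and each line is 1 measured gene with its transport system; points are the 3 arrays, the bar is their mean and dotted lines mark 2-fold. Both measured y+ carriers lie to the right, Slc7a3 at 4.09 and Slc7a1 at 2.32, while Slc38a2 lies left of 0 and the other system A genes right of it; Slc7a5 and Slc43a2, left of 0 here, lie right of 0 with median centring and without normalization.

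The cationic amino acid carriers of system y+, which bring arginine, lysine and ornithine into cells, were higher in iPS M13. Slc7a3, a carrier of this system known mainly from brain, had signals of 14.43, 14.36 and 14.34 in iPS M13, against 10.28, 10.37 and 10.23 in mix1. Its ratio of 4.09 ± 0.08, or 17.0-fold, was the highest of the 28 genes (adjusted p = 1.66e-06). Slc7a1, the widely expressed carrier that many cells use for arginine, had signals of 13.11, 13.20 and 13.14 in iPS M13, against 10.78, 10.89 and 10.81 in mix1. Its ratio was 2.32 ± 0.01, or 5.01-fold (adjusted p = 8.06e-07). Across all alternatives the ratio lay between 3.74 and 4.94 for Slc7a3 and between 1.47 and 3.18 for Slc7a1. The third y+ gene, Slc7a2, did not rise above background in either RNA.

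The lower end for Slc7a1 came from averaging its probes, which differed in size. The probe used gave 2.33, 2.31 and 2.33 on the 3 arrays, and the other gave 0.63, 0.54 and 0.65, under 2-fold but with the same sign. In build rn3, per the file headers, the probe used lay at chr12:7283319-7283379 on the plus strand and the other at chr12:7277147-7277719, a stretch longer than the 60 bases of the probe. Both sequences are printed, with that of the single Slc7a3 probe at chrX:89233121-89233180 on the minus strand, because the y+ result rests on them.
Slc7a3 probe: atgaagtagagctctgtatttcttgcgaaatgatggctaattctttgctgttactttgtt
Slc7a1 probe used: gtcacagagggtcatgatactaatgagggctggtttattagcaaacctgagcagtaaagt
Slc7a1 other probe: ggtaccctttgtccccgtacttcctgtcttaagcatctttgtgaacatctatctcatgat

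System A, the sodium-coupled uptake of small neutral amino acids such as alanine and glutamine, split between its members. Slc38a4, a member known mainly from liver and placenta, had signals of 13.34, 13.53 and 13.38 in iPS M13, against 11.41, 11.55 and 11.39 in mix1. Slc38a1, a glutamine carrier of neurons and many growing cells, had 12.27, 12.37 and 12.30 in iPS M13, against 10.67, 10.73 and 10.74 in mix1. Slc38a2, the widely expressed member whose transcript is known to increase when amino acids run short, had 14.23, 14.17 and 14.27 in iPS M13, against 16.14, 16.07 and 16.15 in mix1. On each of the 3 arrays Slc38a4 and Slc38a1 read higher in iPS M13 than in mix1, and Slc38a2 read lower. The ratios were 1.97 ± 0.03 for Slc38a4 (adjusted p = 1.68e-06), 1.60 ± 0.04 for Slc38a1 (adjusted p = 3.46e-06) and -1.89 ± 0.01 for Slc38a2 (adjusted p = 1.14e-06). A second Slc38a2 probe gave -1.85, -1.84 and -1.86. The sign and call of all 3 genes held under every alternative, with ranges of 1.83 to 2.82 for Slc38a4, 1.39 to 2.45 for Slc38a1 and -2.24 to -1.30 for Slc38a2.

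The probes of these 3 genes lie near each other on 1 chromosome, at chr7:135330910-135330969 for Slc38a1, chr7:135441972-135442031 for Slc38a2 and chr7:135769462-135769521 for Slc38a4, on the minus strand of rn3. Their sequences are printed since genes of 1 transport system in 1 stretch of the genome had opposite directions and the probes have to be told apart.
Slc38a1 probe: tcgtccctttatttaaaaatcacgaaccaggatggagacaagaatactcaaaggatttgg
Slc38a2 probe: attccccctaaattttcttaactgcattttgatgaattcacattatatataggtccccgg
Slc38a4 probe: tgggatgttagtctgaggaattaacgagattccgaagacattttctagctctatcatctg

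Among the other SLC38 genes, Slc38a5, a system N carrier that exchanges glutamine, asparagine and histidine with sodium against protons, was called higher. Its signals were 8.69, 8.70 and 8.70 in iPS M13, while in mix1 the probe was at background on every array and read 7.09, 7.56 and 7.08. Where an RNA was at background on all arrays for all probes of a gene, the fold is given as a bound, the mean of the bright RNA over, per array, whichever is higher of the dim signal and a floor. The floor was the weakest signal that passed the background test, 7.35, 4.72 and 7.13 on the log2 scale in mix1 on the 3 arrays. On array 2 it lay under the mix1 signals of Slc1a1, Slc38a5 and Slc43a3, so it limited nothing there. Bounds belong to the mean of the 3 arrays under loess, and single arrays or other settings can lie under them. Slc38a5 was at least 2.54-fold higher in iPS M13 (ratio 1.45 ± 0.27, adjusted p = 5.82e-04), with ratios of 1.60, 1.14 and 1.62. Slc38a6, a less studied member of the family, had ratios of -1.18, -1.09 and -1.05 and was called lower (-1.11 ± 0.07, adjusted p = 2.29e-05). Its other 2 measured probes gave -0.45 ± 0.03 and -0.85 ± 0.05, the mean over probes of -0.80 was under 2-fold, and the call was also lost with median centring (-0.56) and without normalization (-0.62). The remaining system N gene, Slc38a3, was not measured.

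The exchangers of system ASC, which trade alanine, serine, cysteine and, in the case of Slc1a5, glutamine, also differed in direction. Slc1a5 had signals of 16.17, 16.13 and 16.17 in iPS M13, against 15.05, 15.01 and 15.05 in mix1, almost the same distance on each array. It was 2.17-fold higher (1.12 ± 0.0035, adjusted p = 2.50e-06). With the trend of ratios with probe GC content taken off it stood at 0.77, under 2-fold, and its second probe was not above background in either RNA. Slc1a4, which prefers serine, alanine and cysteine, had 8.55, 8.64 and 8.58 in iPS M13, against 9.62, 9.67 and 9.58 in mix1. It was called lower at -1.03 ± 0.03 (adjusted p = 6.37e-06), a value close to the minimum fold. That call was lost with median centring (-0.47), without normalization (-0.53), with processed signals (-0.93) and with the GC trend taken off (-0.96).

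The excitatory amino acid transporters of system X-AG carry glutamate and aspartate with sodium and clear glutamate from synapses. Slc1a6, known from cerebellar Purkinje neurons, had signals of 11.53, 11.43 and 11.49 in iPS M13, against 8.90, 8.77 and 8.72 in mix1, and was 6.45-fold higher (2.69 ± 0.07, adjusted p = 2.95e-06). Slc1a1, a form found in neurons and kidney, read 8.22, 8.28 and 8.18 in iPS M13, against 7.05, 7.32 and 6.97 in mix1, where it was at background on every array. It was at least 1.94-fold higher (1.11 ± 0.14, adjusted p = 1.65e-04), and with the GC trend taken off its ratio was 0.90, under 2-fold. Slc1a3, the main form of many glial cells, had 12.98, 12.90 and 13.05 in iPS M13, against 14.55, 14.43 and 14.59 in mix1. It was called lower at -1.54 ± 0.02 (adjusted p = 1.89e-06), its second probe gave -1.56, -1.58 and -1.61, and the call was lost with median centring (-0.76) and without normalization (-0.82). Slc1a2, the other main glial form, and Slc1a7 of the retina stayed at background in both RNAs. The glial markers Gfap, Aqp4, S100b and Olig2 were at background in both RNAs, and of the 3 measured glial markers 1 was higher and 1 lower, with summed signals of 1720 to 1990 in iPS M13 against 5620 to 6620 in mix1. The part of neuronal or glial cells in these ratios was not tested.

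The heavy chain Slc3a2 (CD98hc), partner of the light chains of systems L, y+L, x-c and asc, was called lower in iPS M13. Its signals were 14.15, 14.11 and 14.26 in iPS M13, against 15.33, 15.27 and 15.40 in mix1, with a ratio of -1.17 ± 0.02 and an adjusted p of 3.22e-06. Relative to the median gene of each scaling the ratio was -1.14 under loess, -1.09 with median centring or no normalization and -1.30 with processed signals. Taken as such it was -0.51 with median centring and -0.57 without normalization, and no longer called. The other heavy chain, Slc3a1 (rBAT), partner of the b0,+ light chain in kidney and gut, read 8.36, 8.23 and 8.41 in iPS M13, against 7.78, 7.79 and 7.84 in mix1, where it was well above background on 2 of 3 arrays. Its ratio of 0.54 ± 0.08 was under 2-fold, and with processed signals it was 1.16 and called higher. Its light chain Slc7a9 was at background in both RNAs, and so was Slc7a13, another light chain found with it in kidney.

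The system L light chains of Slc3a2 were both under 2-fold under loess. Slc7a5, the light chain that with Slc3a2 imports leucine and other large neutral amino acids, had signals of 11.52, 11.54 and 11.40 in iPS M13, against 12.14, 12.13 and 12.00 in mix1. Its ratio of -0.60 ± 0.02 (adjusted p = 1.39e-05) was not called, and it was 0.25 with median centring and 0.19 without normalization. Slc7a8, a second system L light chain, gave -0.83, -0.77 and -0.85, a ratio of -0.82 ± 0.04 that was not called and that was -1.59 and called lower with the GC trend taken off. Neither light chain was called under loess, and whether their ratios differ from that of Slc3a2 was not tested. The probes of the pair that forms the main leucine importer are printed, at chr1:211534958-211535017 for Slc3a2 and chr19:52126270-52126329 for Slc7a5, both on the minus strand of rn3.
Slc3a2 probe: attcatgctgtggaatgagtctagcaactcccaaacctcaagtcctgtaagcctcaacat
Slc7a5 probe: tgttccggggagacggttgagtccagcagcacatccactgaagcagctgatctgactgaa

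System y+L exchanges cationic amino acids out of the cell for neutral ones and sodium. Its light chain Slc7a7, known from gut, kidney and macrophages, read 6.73, 6.64 and 6.60 in iPS M13, at background on every array, against 9.10, 8.87 and 9.06 in mix1. It was at least 3.89-fold lower in iPS M13 (-2.35 ± 0.12, adjusted p = 1.35e-05). Slc7a6, the more widely expressed light chain of the same system, had 8.17, 8.23 and 8.37 in iPS M13, against 7.71, 7.83 and 7.89 in mix1, well above background in mix1 on 2 of 3 arrays. Its ratio of 0.45 ± 0.04 (adjusted p = 1.13e-04) was not called. Macrophage markers summed to 3860 to 4360 in iPS M13 against 308000 to 321000 in mix1, with Itgam, Ctss and Aif1 at background in iPS M13. Renal and gut epithelium markers summed to 4880 to 5240 against 24600 to 27700, but did not go 1 way. Of 5 measured genes, Lrp2 at 2.79 and Umod at 1.90 were higher and Anpep at -6.82 and Cdh16 at -1.33 lower. Slc5a1, Slc34a1 and Vil1 were at background in both RNAs, so the sum does not describe these markers as a set. The part of these cell types in the ratio of Slc7a7 was not tested. The cystine and glutamate exchanger Slc7a11 of system x-c and the asc light chain Slc7a10 were at background in both RNAs.

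**Figure D2:**
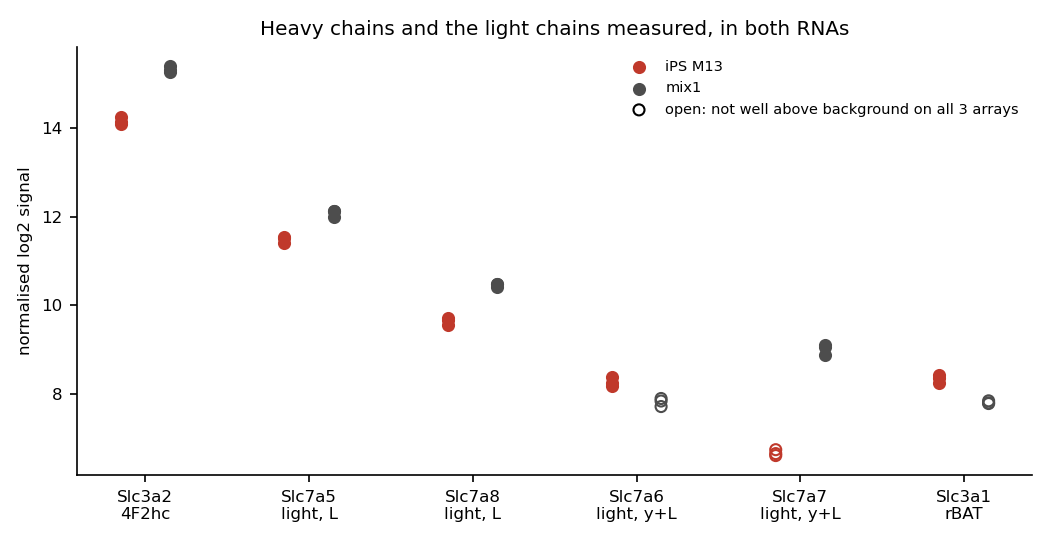
The vertical axis is the normalised log2 signal of the probe used for each heavy or light chain, with iPS M13 in red at the left and mix1 in grey at the right of each gene, 1 point per array; open points belong to an RNA in which the probe was not well above background on all 3 arrays. Heights can be compared within a gene only: Slc3a2 and Slc7a7 lie lower in iPS M13, at ratios of -1.17 and -2.35, while Slc7a5, whose sign turned with median centring and without normalization, Slc7a8, Slc7a6 and Slc3a1 differ by less than 2-fold.

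The SLC43 family includes carriers of large neutral amino acids that need no heavy chain. Slc43a1, which carries leucine and other branched-chain amino acids by facilitated diffusion, had signals of 7.45, 7.53 and 7.49 in iPS M13, against 9.11, 9.02 and 9.27 in mix1, and was well above background in iPS M13 on 2 of 3 arrays. It was called lower at -1.64 ± 0.15 (adjusted p = 5.79e-05). Slc43a2, a close relative, gave -0.65, -0.65 and -0.61, and a second probe gave -0.43, -0.47 and -0.44. It was not called at -0.64 ± 0.02, stood at 0.20 with median centring and at 0.14 without normalization, and was -1.41 and called lower with the GC trend taken off. Slc43a3, which despite its family transports purine nucleobases, had 9.30, 9.45 and 9.34 in iPS M13 and was not well above background in mix1, at 7.24, 7.64 and 7.34. As the mean of 3 arrays under loess it was at least 3.79-fold higher in iPS M13 (1.96 ± 0.13, adjusted p = 2.69e-05), with ratios of 2.06, 1.81 and 2.00.

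The probes of Slc43a2 and Slc7a8 that gave these values had 25% G and C. On the 3 arrays the log2 ratio fell by 0.43, 0.41 and 0.43 for every 10% of GC, over the probes that stood for the genes tested, where the files gave a sequence.

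The SLC6 family couples uptake to sodium, and in many members also to chloride, and covers amino acids, taurine, creatine, GABA and monoamines. Slc6a15, a neuronal carrier of branched-chain amino acids and proline, had signals of 12.43, 12.38 and 12.54 in iPS M13, against 8.63, 8.79 and 8.75 in mix1. It was 13.2-fold higher (3.73 ± 0.12, adjusted p = 4.09e-06). Its relative Slc6a17, which loads neutral amino acids into synaptic vesicles, read 6.56, 6.48 and 6.52 in iPS M13, at background on every array, against 8.90, 8.60 and 8.88 in mix1, and was at least 3.34-fold lower (-2.27 ± 0.13, adjusted p = 1.84e-05). Of the neuron markers, Map2, Snap25 and Syt1 were at background in mix1, and the part of neuron-like cells in the ratio of Slc6a15 was not tested. The carriers Slc6a14 and Slc6a18, of systems B0,+ and B0, were not measured.

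The carriers of taurine and creatine, small molecules that cells hold at high concentration, were both lower in iPS M13. Slc6a8, the creatine transporter, had signals of 11.59, 11.70 and 11.45 in iPS M13, against 14.40, 14.47 and 14.24 in mix1. This was the lowest ratio of the 28 genes, -2.79 ± 0.02, or 6.92-fold lower (adjusted p = 7.04e-07), and its second probe gave -2.56, -2.58 and -2.61. Slc6a6, the taurine transporter, had 10.42, 10.60 and 10.46 in iPS M13, against 12.29, 12.46 and 12.35 in mix1. It was 3.65-fold lower (-1.87 ± 0.01, adjusted p = 1.18e-06). Both kept direction and call under every alternative. Fibroblast markers summed to 17900 to 21100 in iPS M13 against 2170000 to 2450000 in mix1, with Thy1 and Postn at background in iPS M13, and their part in these ratios was not tested.

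Of the carriers of GABA, betaine and monoamines, only Slc6a12 and Slc6a4 were measured, both dim in iPS M13. Slc6a12, which takes up betaine and GABA, was well above background in iPS M13 on 1 of 3 arrays and gave -1.22, -1.04 and -1.22. It was called lower at -1.16 ± 0.10 (adjusted p = 6.36e-05). Slc6a4, the serotonin transporter, was above background in iPS M13 on 1 array, gave -0.92, -0.93 and -1.41 and was called lower at -1.09 ± 0.28 (adjusted p = 0.00167). Replicate 3 decided that call, since without it the ratio was -0.925, although a second probe, at background in iPS M13, gave -1.71, -1.61 and -1.73. Both calls were also lost with median centring, at -0.94 for Slc6a12 and -0.88 for Slc6a4, and with the GC trend taken off, at -0.66 and -0.59. Both were under 2-fold without normalization too, at -0.997 and -0.934. With processed signals both were called and farther from 0, at -2.03 for Slc6a12 and -1.86 for Slc6a4, and the authors' deposited table gave the same values.

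The 5 genes at background in 1 RNA on all arrays also had ratios farther from 0 with processed signals than under loess, namely 2.71 for Slc1a1, 3.31 for Slc38a5, 3.50 for Slc43a3, -4.05 for Slc7a7 and -4.42 for Slc6a17.

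Several SLC36 carriers are proton-coupled and move small amino acids out of lysosomes and across the gut wall. Slc36a4, a member that binds proline and tryptophan, gave -0.85, -0.83 and -0.83 and was not called at -0.84 ± 0.01 (adjusted p = 5.26e-06). With the GC trend taken off it was -1.19 and called lower. Slc36a1, the lysosomal member, was well above background on 1 of 3 arrays in mix1, and Slc36a2 and Slc36a3 on none.

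In all, 22 transporter genes were not measured, and 18 of them were at background in both RNAs on every array. Besides those named above, these included Slc6a13 (GABA), Slc6a3 (dopamine), Slc6a5 (glycine), Slc6a7 (proline) and Slc7a4, an SLC7 protein related to the cationic carriers. The other 4 reached that level on some arrays only: Slc6a9, a glycine carrier, on 2 arrays in mix1, Slc36a1 on 1 array in mix1, Slc6a11, a GABA carrier, on 1 array in iPS M13 and Slc6a2, the noradrenaline transporter, on 1 array in each RNA. These genes were left out of the test by the filter on dim probes, so no difference is given for them.

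Where the array held more than 1 measured probe for a gene, the probes gave the same sign in each of 7 genes. They differed in being past 2-fold or not for Slc7a1 and Slc38a6.

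**Figure D3:**
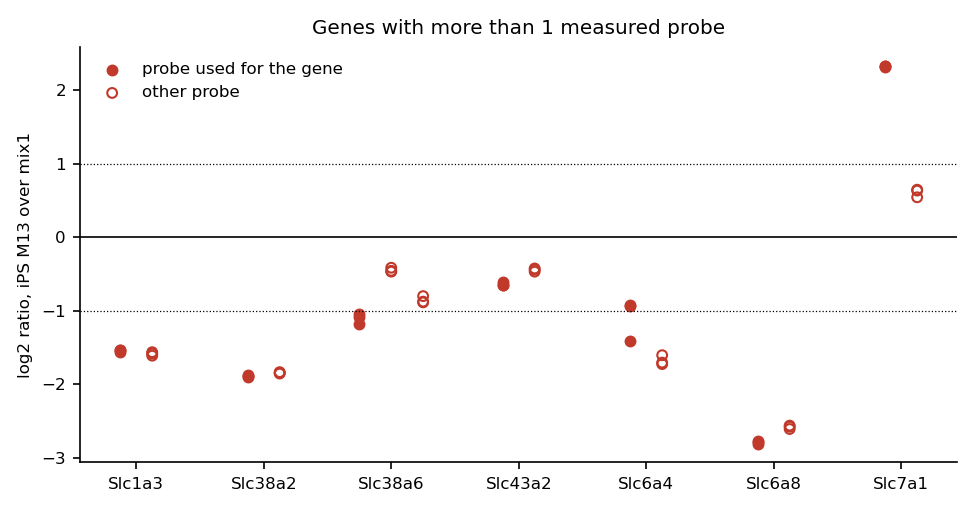
The vertical axis is the log2 ratio of iPS M13 over mix1 for the 7 transporter genes with more than 1 measured probe; points are the 3 arrays, filled for the probe used and open for others, and dotted lines mark 2-fold. The probes of Slc1a3, Slc38a2 and Slc6a8 lie close together, while those of Slc7a1 lie at about 2.32 and 0.61.

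Genes of the same families whose probes carried another name on the array are outside the 50. After names were updated through RefSeq, Slc38a10 was lower at -2.50 ± 0.03 (adjusted p = 1.20e-06) and Slc6a20a, a carrier of proline and related imino acids, was higher at 1.59 ± 0.06 (adjusted p = 6.37e-06). Slc38a7, a lysosomal glutamine carrier, was lower at -1.31 ± 0.03 and Slc6a16 at -1.31 ± 0.04, both losing the call with median centring. Slc38a9, the lysosomal arginine sensor of the growth kinase mTORC1, was at 0.13 ± 0.07 and not called.

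Promoters of RefSeq genes in build GRCr8, 300 bases around each start, were at hand for 22 of the 28 measured genes. They were searched on both strands for TGATGNAA, the core of the response element through which Atf4 and C/EBP proteins act when amino acids are scarce, for the octamer ATGCAAAT bound by Oct4 and for the E-box CACGTG. TGATGNAA occurred in 3.82% of all 27457 promoters of this length and in those of Slc1a4, at position -235, Slc38a1, at -142, and Slc7a1, at -30 from the start. The octamer occurred in 1.64% of promoters and in none of the 22, and the E-box occurred in 6.65% and in those of Slc1a4, Slc1a6, Slc43a1 and Slc7a5. No motif overlapped another in the promoters printed. A match is a description of these letters and not a binding site. Of the genes with TGATGNAA, Slc38a1 and Slc7a1 were higher in iPS M13 and Slc1a4 was lower under loess. Their promoters are shown for that reason, with TGATGNAA or its reverse complement and the E-box in capitals, at chr14:98761513-98761812 on the minus strand for Slc1a4, chr7:129681352-129681651 on the minus strand for Slc38a1 and chr12:11664238-11664537 on the plus strand for Slc7a1.
Slc1a4 promoter: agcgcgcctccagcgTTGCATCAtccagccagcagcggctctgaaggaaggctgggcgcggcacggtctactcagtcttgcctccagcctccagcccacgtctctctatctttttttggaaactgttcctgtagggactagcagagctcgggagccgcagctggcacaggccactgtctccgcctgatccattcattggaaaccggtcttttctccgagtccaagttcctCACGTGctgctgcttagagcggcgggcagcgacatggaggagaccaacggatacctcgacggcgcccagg
Slc38a1 promoter: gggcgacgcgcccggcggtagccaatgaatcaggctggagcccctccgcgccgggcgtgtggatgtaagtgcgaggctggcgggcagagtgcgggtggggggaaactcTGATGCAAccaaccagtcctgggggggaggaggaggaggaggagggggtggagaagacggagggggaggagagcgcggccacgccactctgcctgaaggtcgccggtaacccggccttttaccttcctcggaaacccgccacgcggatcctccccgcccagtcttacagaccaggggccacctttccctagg
Slc7a1 promoter: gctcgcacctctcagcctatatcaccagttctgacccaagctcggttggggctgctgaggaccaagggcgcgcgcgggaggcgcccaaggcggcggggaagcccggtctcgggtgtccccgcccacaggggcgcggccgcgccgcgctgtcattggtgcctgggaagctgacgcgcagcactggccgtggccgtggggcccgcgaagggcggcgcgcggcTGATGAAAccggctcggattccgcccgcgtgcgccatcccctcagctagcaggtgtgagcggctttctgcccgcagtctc

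Other genes of amino acid supply and sensing were read from the same fit. Of all genes tested, 18.8% were called higher and 25.4% lower under loess, and 36.4% and 17.8% with median centring. Without normalization 34.5% were higher and 18.4% lower, and with processed signals 31.1% and 23.8%. The counts of each list below stand beside these shares. Of 21 measured genes of the amino acid starvation response, 6 were higher in iPS M13 and 10 lower. The higher ones led with enzymes of serine and one-carbon synthesis, Psat1 at 1.85 ± 0.11, Phgdh at 1.48 ± 0.04 and Mthfd2 at 1.30 ± 0.04. The lower ones led with the stress-induced regulators Nupr1 at -6.10 ± 0.04 and Cebpb at -5.68 ± 0.03 and with Chac1, which degrades glutathione, at -4.38 ± 0.01. Atf4, the transcription factor of this response, was at -0.76 ± 0.04 and not called. With median centring 9 genes of the list were higher and 8 lower.

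Sensing of amino acids by mTORC1 had 22 measured genes, of which none was higher and 7 were lower, against 4 higher and 4 lower with median centring. The leading ones were Lamtor4 at -2.45 ± 0.03, a subunit of the lysosomal Ragulator scaffold, Sesn2 at -1.99 ± 0.02, a leucine sensor, and Castor1 at -1.60 ± 0.10, an arginine sensor. The median of this list was -0.40 under loess and 0.31 with median centring. Measured from the median gene of the same scaling it was -0.38 under loess and -0.27 with median centring or no normalization. With processed signals it was -0.44. The list median stood below the median gene each time, though median centring and no normalization give the same value by construction.

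Among 13 measured genes of glutamine and glutamate metabolism, 3 were higher and 3 lower under loess, where 18.8% and 25.4% of all genes were. With median centring 7 were higher and none lower, without normalization 6 and none, and with processed signals 5 and 2. Ppat at 2.26 and Cad at 1.40, which spend glutamine on purine and pyrimidine synthesis, and the asparagine synthetase Asns at 1.19 were higher. The lower genes included the glutamate dehydrogenase Glud1 at -1.32 and Gfpt1, which starts hexosamine synthesis, at -1.18, and neither was called with median centring. Of 17 measured genes of branched-chain, arginine and methionine metabolism, 4 were higher and 4 lower under loess, but 9 higher and 3 lower with median centring, 8 and 3 without normalization and 7 and 3 with processed signals. The polyamine enzymes Amd1 at 1.68 and Odc1 at 1.63 and the homocysteine enzyme Ahcy at 1.26 were higher. The arginase Arg1 at -5.15 and the branched-chain enzymes Bckdha at -3.33 and Bcat2 at -1.94 were lower.

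Of 10 measured carriers of amino acids and peptides in other families, 1 was higher and 3 were lower under loess. The counts were 5 higher and 2 lower with median centring or no normalization and 3 and 2 with processed signals. Measured from the median gene, the median of the list was 0.24 under loess and 0.34 with processed signals. With median centring or no normalization it was 0.49. Slc16a10, which carries aromatic amino acids, was at 2.99 ± 0.13 and was well above background in mix1 on 2 arrays. The peptide carriers Slc15a3 and Slc15a1 were at background in iPS M13 and at least 11.2-fold (adjusted p = 2.18e-05) and 2.15-fold lower (adjusted p = 4.05e-05). The lysosomal cationic carrier Slc66a1 was at -1.1997 ± 0.03 under loess and at -0.50, not called, with median centring. Among 7 measured genes of a list of accessory and regulatory proteins of transporters, 5 were lower and none higher under loess, with Sgk1, a kinase that keeps transporters at the surface, at -4.58 ± 0.09, Arl6ip5, which binds the glutamate transporter Slc1a1, at -2.21 ± 0.03 and the chaperone Bsg at -2.01 ± 0.06. With median centring 4 of the 7 measured genes were lower, and 1 that was not called under loess was higher.

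**Figure D4:**
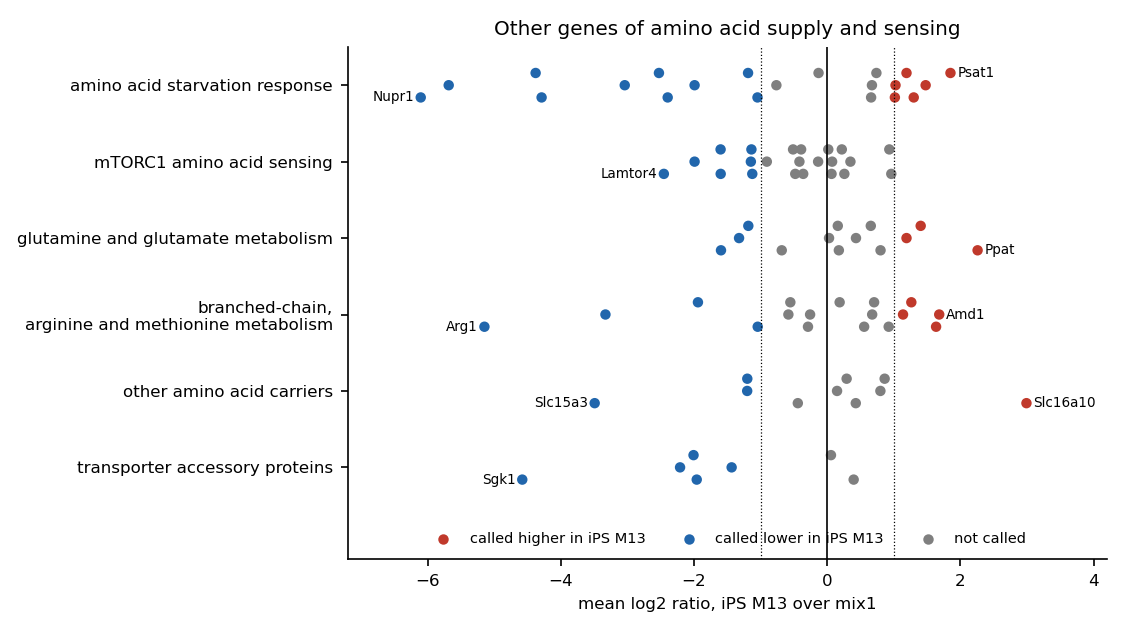
The horizontal axis is the log2 ratio of iPS M13 over mix1, as the mean of 3 arrays under loess, and each point is 1 measured gene of a list, red where called higher in iPS M13, blue where called lower and grey where not called; dotted lines mark 2-fold, and vertical offsets only separate points. The starvation response runs to -6.10 at Nupr1 and 1.85 at Psat1, and no mTORC1 sensing gene is called higher under loess, against 4 with median centring. Of all genes tested, 18.8% are called higher under loess and 36.4% with median centring.

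**Figure D5:**
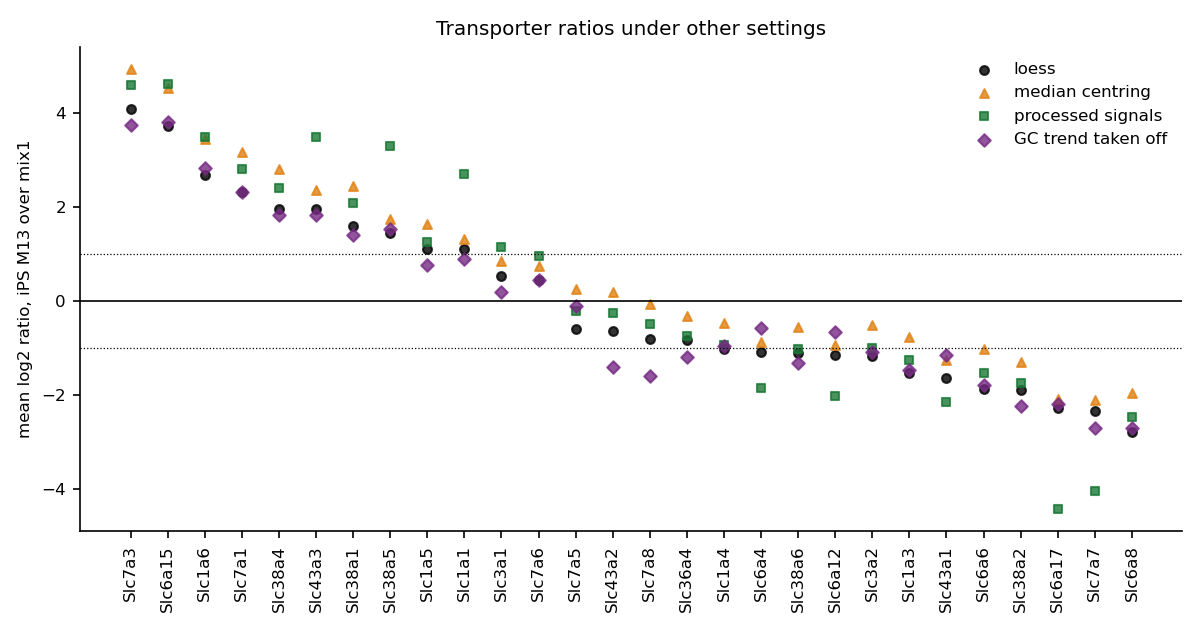
The vertical axis is the log2 ratio of iPS M13 over mix1, as the mean of 3 arrays, of each measured transporter under loess, median centring, the scanner software's processed signals and loess with the GC trend taken off; genes run from the highest to the lowest ratio under loess, and dotted lines mark 2-fold. The symbols of Slc7a3 lie between 3.74 and 4.94, those of Slc7a5 and Slc43a2 fall on both sides of 0, and processed signals spread the dim genes such as Slc6a17 and Slc7a7 farther from 0.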

How the data were processed

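RNA of 3 iPS M13 samples (Cy3) and of mix1 (Cy5) was hybridised to 3 two-colour arrays. Spot intensities were deposited as Agilent Feature Extraction 9.5.3.1 wrote them, per the file headers, with local background and, in the same files, background-detrended and dye-normalised intensities and log10 ratios of Cy5 over Cy3. The authors' deposited table held log2 ratios. Regressed on the arrays' log10 ratios, its columns gave a slope of -3.322 each and correlated at -0.99987, -0.99996 and -0.99986, so it was read as log2 of Cy3 over Cy5; its medians were -0.0413, -0.0282 and -0.0286, and its centring is unknown. Probe positions are rn3, per the file headers.

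Mean signals were background-corrected (normexp, offset 50) and loess-normalised within arrays in limma 3.58.1 (R 4.3.3), with control spots at weight 0 and 205, 263 and 192 outlier spots left out. No member spot was saturated. Spots of a probe were averaged, 24149 of 41012 probes well above background in 1 channel on all 3 arrays were kept, and the brightest stood for its gene. Ratios were tested against 0 with lmFit and eBayes, adjusted by Benjamini-Hochberg. An exact two-sided sign-flip test of 3 arrays cannot go below p = 0.25. On simulated data with 20319 genes, some were changed by a log2 ratio of 1.5, 2 or 3 in either direction. Of these, 97% to 100% were called at each size, and no unchanged gene was called. All these sizes lay beyond the 2-fold minimum, and only the spread between arrays was simulated, with no dye, centring or GC effect. The simulation therefore cannot give the error rate of the real calls. Signals and bounds used loess and Aquantile scaling. Symbols came from the files or a RefSeq table, and 19678 probes kept the file's name. Precision is limited by the 3 arrays.

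The members, their transport systems, the pathway and marker lists and the rule for named genes were chosen with earlier results of these data known. The rule names every member, describes measured ones by system, takes from each pathway list the called genes with the 3 largest ratios in each direction and gives marker lists as counts and summed signals; other genes named, such as Atf4, were added after their values were seen. Some genes that the rule names are not reported here. Alternatives were other scalings, the processed signals, the authors' table, no background correction, other filters, the mean over probes, a GC correction, a lower fold and leaving out each replicate. Tables and figures were made in Python 3.11.15 (pandas 2.3.3, matplotlib 3.10.9, numpy 2.4.6).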

Additional observations from a re-analysis of the deposited data

How the results depend on the processing

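Of the 22 called transporter genes, 14 (8 higher, 6 lower) kept direction and call under each alternative that gave them a value, 8 lost the call under at least 1 and none turned direction. Of the 14, 9 had a value under all, and Slc38a5, Slc43a1, Slc43a3, Slc6a17 and Slc7a7 had none where both channels had to be above background. Not every alternative was a separate check for these 14. The other filters left the ratios of the genes they kept as they were under loess. The authors' table repeated their values with processed signals. Median centring and no normalization differed only by a constant per array. Of the genes not called, Slc7a5 turned to 0.2476 with median centring and 0.1905 without normalization, and Slc43a2 to 0.195 and 0.1379. The count of transporters called lower was 6 with median centring, 6 without normalization and 7 of 18 genes where both channels had to be above background, and 16 with a minimum of 1.5-fold. In the same order, 17.8%, 18.4%, 21.9% and 34.1% of all genes were called lower. Leaving out a replicate gave 10 higher and 11 to 12 lower. Over all genes, calls higher in iPS M13 numbered 7401 with median centring, 7001 without normalization, 6311 with processed signals or the authors' deposited table and 6111 with a minimum of 1.5-fold, and 3740 to 3908 with a replicate left out. Lower calls over all genes were 5123 to 5205 with a replicate left out. The median transporter ratio was 0.0632 with median centring, 0.0061 without normalization, -0.3729 with processed signals or the authors' table, -0.1354 without the filter on dim probes, which added 22 genes, -0.7031 with the mean over probes and -0.6232 with the GC trend taken off, and -0.734 to -0.719 with a replicate left out. The cause of the differences between scalings was not tested. Ratios of dim genes are limited by signal over background, and processed signals gave larger absolute ratios than normexp for the 5 genes at background in 1 RNA. No paired analysis was possible because the labels give 1 group, so no numbered samples of another group could be matched to it; the ratio within an array already sets its own iPS M13 sample against mix1. Hybridisation of mouse feeder RNA to the rat probes was not tested.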
